A study of Mus musculus with 11 samples.

Results

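The 31 genes described here make the lipids of cell membranes: 23 belong to sterol synthesis, its regulators and sterol transport, and 8 to fatty acid synthesis and desaturation. They were chosen as a named list of enzymes, regulators and a carrier of these pathways, out of 23352 gene symbols in the tables. All 31 were found, 30 by symbol and Msmo1 by its older symbol Sc4mol. They comprise 4 regulators, 7 genes of the mevalonate part of the pathway, 11 genes of the part that leads to cholesterol by way of squalene, 1 sterol carrier and 8 fatty acid genes.

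Cholesterol is built in the cytosol and endoplasmic reticulum from acetyl-CoA, first to mevalonate and isoprenoid units, then to squalene, lanosterol and cholesterol. The SREBP transcription factors switch on most of these enzymes. They are made as membrane-bound precursors, carried by SCAP to the Golgi when membrane sterol is low and released there by proteases, while INSIG proteins hold SCAP back when sterol is plentiful. SREBP-2 acts mainly on sterol genes and SREBP-1 mainly on fatty acid genes, and cells in culture also take both lipids from serum.

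Total RNA of 3 mouse cell lines was sequenced in a study of how cells read BMP ligands. ES cells of the E14 line (strain 129/Ola) were grown on gelatin in DMEM with 15% FBS and 1000 units/ml LIF, NIH3T3 fibroblasts (NIH/Swiss) in DMEM with 10% CCS, and NMuMG mammary epithelial cells (NAMRU) in DMEM with 10% FBS. Some cultures were parental and others carried a BRE reporter transgene. The reporter cultures carry a line name of their own, and the labels do not say whether each is 1 clone. There were 3 ES replicates (parental Bio 1, reporter Bio 1 with 2 technical runs averaged, reporter Bio 2), 3 NIH3T3 replicates (replicate 1 parental Bio 1, replicates 2 and 3 from tables named by line and number) and 4 NMuMG replicates (parental and reporter cultures, each as Bio 2 and as Bio 1). The labels list the other NIH3T3 samples as reporter cultures. By elimination NIH3T3 replicates 2 and 3 would be reporter cultures, though which is which is not known. Their tables carry the same line name as the parental one, not the reporter name. The labels give Bio numbers without saying what was repeated, so p-values measure the spread between these cultures. Line and serum cannot be told apart.

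By the running numbers in the table names the libraries form 3 library series: series 1 holds NMuMG Bio 1 and ES Bio 1, series 2 holds NMuMG Bio 2, ES Bio 2 and NIH3T3 replicate 1, and series 3 holds NIH3T3 replicates 2 and 3. Bio number and series therefore cannot be told apart in NMuMG and ES. Short RNA entries took 12.3% to 19.7% of the summed FPKM in series 1, 5.48% to 6.09% in series 2 and 3.80% to 4.87% in series 3, and relative depth was 0.933 to 1.06, 1.13 to 1.28, and 3.80 to 3.81 times that of the parental ES library. The 8 pluripotency markers summed to 4290 to 5502 FPKM in ES cultures, the 8 fibroblast markers to 2448 to 6183 in NIH3T3, and the 8 epithelial markers to 4564 to 6744 in NMuMG. The epithelial sum came from Krt8, Krt18, Krt19, Krt7 and Cdh1, which were called lower in ES than in NMuMG. Epcam, Cldn4 and Cldn7 were called higher in ES, with Epcam at 62.8 to 77.7 FPKM in ES, against 2.10 to 7.57 in NMuMG, and Cldn7 listed at 0 in all 4 NMuMG cultures.

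In NMuMG the Bio 2 cultures held more of almost every sterol gene than the Bio 1 cultures. Values are FPKM, fragments scaled to transcript length and to the mapped fragments of a library, and changes are log2 differences of FPKM + 1. Both Bio 2 cultures lay above both Bio 1 cultures for 29 of 31 members, against 18.5% of the 12854 genes tested, and 0 members lay below, against 22.2%. All 4 regulators, all 7 mevalonate genes, all 11 squalene-to-cholesterol genes and the carrier did so, and 6 of 8 fatty acid genes; Acaca and Fasn overlapped. The median log2 change was 0.88 over the members (0.87 without Fdft1) and -0.01 over all genes. As a share of the summed FPKM without short RNA, the members took 0.476% and 0.465% in the parental and reporter Bio 2 cultures, against 0.245% and 0.277% in the Bio 1 cultures.

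Few of these differences passed the test across all genes. The test shared its spread over all lines, with the NIH3T3 replicates of series 2 and 3 as 1 group. The gap between those NIH3T3 replicates therefore enters the standard errors and p-values given for NMuMG. By limma at an adjusted p under 0.05 and at least 2-fold, 1 of 31 members was called higher, against 0.0778% of all genes, and 0 lower, against 0.397%. The called member was Fdft1, and it was listed at 0 in both Bio 1 cultures, so no fold is given. With parental or reporter as a block in the 4 NMuMG cultures alone, 0 members and 0 of all genes were called. At an unadjusted p under 0.05, 19 of 31 members were higher, against 2.18% of all genes. In bulk RNA, a change in each cell and a change in the share of cells that make a transcript cannot be told apart.

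**Figure D1:**
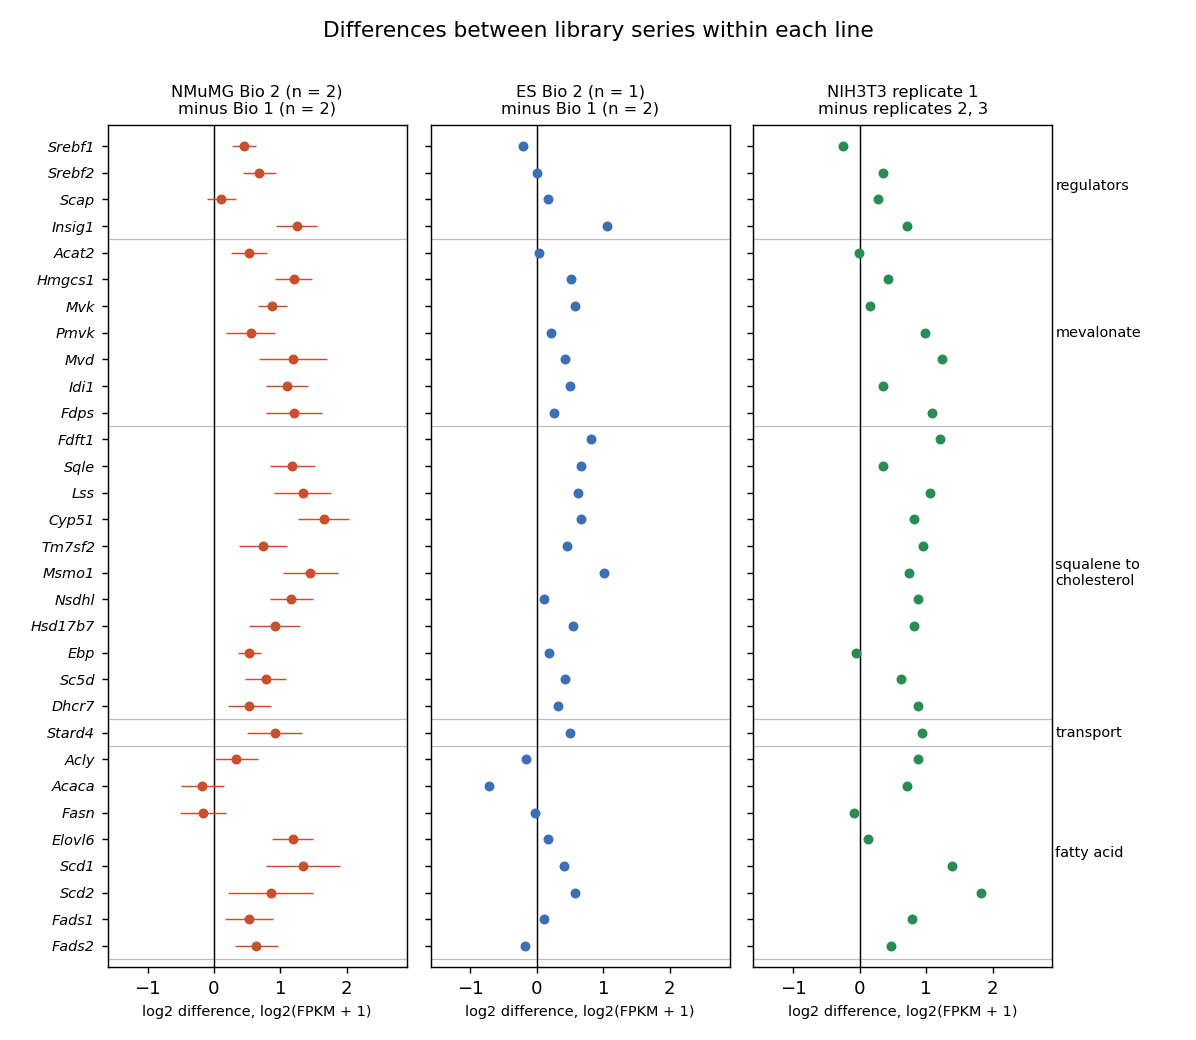
Log2 differences of the members between library series within NMuMG (Bio 2 minus Bio 1, bars are limma standard errors), ES (Bio 2 minus Bio 1) and NIH3T3 (replicate 1 minus the mean of replicates 2 and 3), on the log2(FPKM + 1) scale; Fdft1 is left out of the NMuMG panel because it was listed at 0 in Bio 1. In NMuMG all points but Acaca and Fasn lie right of 0, and the medians of the members are 0.88 in NMuMG, 0.41 in ES and 0.75 in NIH3T3. The bars rest on a spread shared over all lines, NIH3T3 included.

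Among the regulators, Insig1 had the largest difference. Insig1, which holds SCAP in the endoplasmic reticulum and is itself a target of SREBP, had 51.7 and 49.9 FPKM in the parental and reporter Bio 2 cultures, against 19.5 and 22.3 in the parental and reporter Bio 1 cultures (log2 change 1.24 ± 0.31 SE, adjusted p = 0.331, limma). Srebf2, which encodes SREBP-2, had 98.5 and 139 FPKM in Bio 2, against 64.0 and 82.0 in Bio 1 (0.68 ± 0.25). The pairs of Insig1 lay far apart, whereas those of Srebf2 were separated by less than the difference between the Bio 2 cultures.

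Srebf1, which encodes SREBP-1, had 64.0 and 73.9 FPKM in Bio 2 cultures, against 52.1 and 48.3 in Bio 1 cultures (0.45 ± 0.18). Scap, the escort protein of the SREBPs, had 23.5 and 22.4 FPKM in Bio 2, against 20.5 and 21.8 in Bio 1 (0.11 ± 0.22). Its groups did not overlap but were 1.08-fold apart in their means.

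In the mevalonate part the log2 changes ran between 0.53 (Acat2) and 1.20 (Fdps and Hmgcs1). Hmgcs1, the synthase that makes HMG-CoA, had 102 and 77.8 FPKM in the Bio 2 cultures and 35.2 and 41.6 in the Bio 1 cultures. Mvd, the decarboxylase that yields isopentenyl diphosphate, had 21.0 and 20.6 FPKM in Bio 2 and 8.87 and 8.29 in Bio 1, pairs that hardly differed within a Bio number. Idi1, which isomerises isopentenyl diphosphate, had 44.7 and 33.7 FPKM in Bio 2 and 15.2 and 20.4 in Bio 1. These 3 genes had group means 2.34, 2.43 and 2.20 times as high in Bio 2.

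Fdps, which joins isoprenoid units to farnesyl diphosphate, had 112 and 126 FPKM in Bio 2 cultures, against 44.7 and 58.3 in Bio 1 cultures. The kinases Mvk and Pmvk and the acetoacetyl-CoA thiolase Acat2 had smaller ratios of Bio 2 to Bio 1 means, 1.94, 1.49 and 1.49. Of the 7, Hmgcs1 had the lowest adjusted p, 0.292 (limma).

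The median change of the squalene-to-cholesterol genes was 1.16 with Fdft1 and 1.04 without it, beside 1.097 for the mevalonate genes. Cyp51, the lanosterol demethylase and the most abundant member in NMuMG, had 302 and 355 FPKM in the Bio 2 cultures, against 82.4 and 129.9 in the Bio 1 cultures (log2 change 1.65 ± 0.38, adjusted p = 0.273, limma). Msmo1, the sterol methyl oxidase, had 82.6 and 79.7 FPKM in Bio 2, against 26.6 and 31.8 in Bio 1 (1.45 ± 0.41). For both genes the lower Bio 2 culture was more than 2-fold above the higher Bio 1 culture.

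Lss, which closes squalene epoxide to lanosterol, had 23.7 and 20.4 FPKM in Bio 2 cultures, against 7.09 and 9.26 in Bio 1 cultures. Sqle, the squalene epoxidase, had 76.7 and 94.4 FPKM in Bio 2, against 27.5 and 49.7 in Bio 1. Nsdhl, a sterol dehydrogenase of the demethylation complex, had 38.9 and 39.3 FPKM in Bio 2, against 16.4 and 17.4 in Bio 1. The Bio 1 pair of Sqle was wide and that of Nsdhl narrow.

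Fdft1, the squalene synthase, had 34.0 and 34.2 FPKM in the Bio 2 cultures and was listed at 0 in both Bio 1 cultures. Its entry shares 774 bases with that of Ctsb, a lysosomal protease with 86.7 and 108 FPKM in Bio 2 and 119 and 109 in Bio 1. Entries of 5 other members also overlap another entry: Srebf1 (with Rai1), Srebf2 (Mir33), Lss (4930483K19Rik), Tm7sf2 (Vps51) and Scd2 (Mir5114). Fdft1 was not among the symbols with a failed status. An exact 0 in such tables can still be a failed estimate, and every other member was above 0 in all libraries. The remaining genes of this role (Tm7sf2, Hsd17b7, Ebp, Sc5d and Dhcr7) had log2 changes between 0.53 and 0.92. Stard4, which carries sterol between membranes, had 32.9 and 24.8 FPKM in Bio 2, against 13.2 and 16.4 in Bio 1.

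The fatty acid genes were divided. Elovl6, which lengthens palmitate, had 11.6 and 9.89 FPKM in the Bio 2 cultures, against 3.62 and 4.76 in the Bio 1 cultures (log2 change 1.19 ± 0.31, adjusted p = 0.372, limma). Scd1 and Scd2 are paralogous stearoyl-CoA desaturases, whose reads the counting may have shared between them. Scd1 had 15.1 and 27.8 FPKM in Bio 2, against 5.48 and 10.1 in Bio 1, and Scd2 had 186 and 207 in Bio 2, against 121 and 96.2 in Bio 1.

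The desaturases Fads1 and Fads2 had Bio 2 means 1.46 and 1.61 times those of Bio 1, and Acly, which makes cytosolic acetyl-CoA, 1.27 times. Acaca, the carboxylase that commits acetyl-CoA to fatty acids, had 6.21 and 4.12 FPKM in Bio 2, against 5.67 and 6.03 in Bio 1. Fasn, the fatty acid synthase, had 44.2 and 31.5 FPKM in Bio 2, against 42.0 and 41.9 in Bio 1. For both the reporter Bio 2 culture was lowest and the parental Bio 2 culture highest.

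Cell cycle genes varied in these cultures too. The 15 proliferation genes had mean log2(FPKM + 1) of 5.59 and 2.03 in the parental and reporter Bio 2 cultures, against 3.97 and 4.46 in the parental and reporter Bio 1 cultures, so the highest and the lowest of the 4 were both Bio 2. The members without Fdft1 had means of 5.46 and 5.39 in the same Bio 2 cultures, against 4.504 and 4.69 in Bio 1. The part of proliferation in these differences was not tested. The 8 adipocyte markers summed to 33.5 and 35.8 FPKM in Bio 2, against 23.8 and 24.8 in Bio 1, nearly all of it Cebpa and Pparg, with Adipoq, Fabp4, Lep and Cfd at 0 in all 4 cultures.

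Other lists of the pathway had smaller medians. Of 14 further sterol genes 1 was called higher in Bio 2 and 0 lower (all genes 0.0778% and 0.397%), with a median of 0.31. Of 7 liver X receptor and efflux genes, 17 tested genes of fatty acid supply and storage and 11 tested genes of fatty acid oxidation 0 were called in either direction. Their medians were -0.13, 0.29 and -0.16. Both Bio 2 cultures lay above both Bio 1 cultures for 8 of the 14 sterol genes, against 18.5% of all genes. They did so for 9 of 17 supply and storage genes, 1 of 7 liver X receptor and efflux genes and 2 of 11 oxidation genes. Both lay below for 2, 2, 1 and 3 genes of these lists in that order, against 22.2%.

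The promoters of 6 members with large changes are printed to show the letters just before the starts of genes with large differences. They come from RefSeq on GRCm38.p6 (mm10) and were chosen after the values were seen, as the members with the largest change that had 1 RefSeq promoter, at least 200 bases outside annotated exons, within 250 bases before the start. Both strands were searched and no matches of different motifs overlapped. Capitals mark CCAAT, the letters of NF-Y binding (ATTGG on the other strand), TCACNCCAC, a form of the sterol regulatory element, and CACGTG, an E-box. Each is written 5′ to 3′ on the strand of its gene.

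Cyp51 (chr5:4104747-4104947, minus strand, to base -50 from the start): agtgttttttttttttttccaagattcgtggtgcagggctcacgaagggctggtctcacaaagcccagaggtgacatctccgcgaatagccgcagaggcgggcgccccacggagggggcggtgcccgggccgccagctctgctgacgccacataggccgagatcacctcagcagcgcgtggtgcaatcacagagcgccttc
Lss (chr10:76531355-76531587, plus strand, to base -18 from the start): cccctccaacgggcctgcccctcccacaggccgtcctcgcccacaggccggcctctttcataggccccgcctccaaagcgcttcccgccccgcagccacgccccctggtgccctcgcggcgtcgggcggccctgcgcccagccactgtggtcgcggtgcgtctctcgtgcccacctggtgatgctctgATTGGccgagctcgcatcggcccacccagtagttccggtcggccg
Insig1 (chr5:28071162-28071362, plus strand, to base -50 from the start): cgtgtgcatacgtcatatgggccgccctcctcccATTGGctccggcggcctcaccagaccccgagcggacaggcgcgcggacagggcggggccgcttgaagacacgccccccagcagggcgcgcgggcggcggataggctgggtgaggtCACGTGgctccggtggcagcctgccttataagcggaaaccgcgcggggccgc
Hmgcs1 (chr13:119690101-119690350, plus strand, to the base before the start): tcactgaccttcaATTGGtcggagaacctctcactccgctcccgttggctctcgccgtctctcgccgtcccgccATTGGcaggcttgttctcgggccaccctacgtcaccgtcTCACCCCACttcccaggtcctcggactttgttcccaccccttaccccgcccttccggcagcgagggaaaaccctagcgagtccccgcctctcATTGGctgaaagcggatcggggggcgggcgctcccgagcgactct
Mvd (chr8:122443423-122443672, minus strand, to the base before the start): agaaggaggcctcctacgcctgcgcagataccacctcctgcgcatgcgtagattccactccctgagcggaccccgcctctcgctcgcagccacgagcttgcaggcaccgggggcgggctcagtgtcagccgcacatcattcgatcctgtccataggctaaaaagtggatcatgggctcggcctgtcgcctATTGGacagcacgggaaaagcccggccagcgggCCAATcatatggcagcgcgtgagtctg
Elovl6 (chr3:129532136-129532354, plus strand, to base -32 from the start): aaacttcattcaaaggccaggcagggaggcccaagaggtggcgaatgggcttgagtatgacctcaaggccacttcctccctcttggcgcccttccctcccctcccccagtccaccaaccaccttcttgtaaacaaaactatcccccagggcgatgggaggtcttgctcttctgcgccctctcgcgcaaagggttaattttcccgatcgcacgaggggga

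Hmgcs1 held 3 CCAAT matches and the sterol element match, Mvd 2 CCAAT matches, Insig1 a CCAAT match and an E-box, and Lss 1 CCAAT match. The stretches shown for Cyp51 and Elovl6 held none of these letters. Cyp51 has a CCAAT match 29 bases before its start, outside the stretch shown. Only 1 form of the sterol element was searched, so a missing match does not show that a promoter lacks such an element. RefSeq promoters matched 24 of the 31 members, with 30 promoters, in which the 250 bases before each start were searched.

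CCAAT was in 63.3% of these promoters (18 of 24 genes), against 33.8% of 32851 mouse promoters and 35.4% of the protein-coding ones. The sterol element form was in 1 of 30 promoters (3.33%, against 1.05% of all), and the E-box in 5 of 30 (16.7%, against 6.02% of all). GGGCGG, a GC box, was in 73.3%, against 32.7% of all and 42.6% of the protein-coding promoters. All 9 squalene-to-cholesterol genes with a RefSeq promoter held CCAAT. A match is a run of letters and no evidence that a factor binds there.

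**Figure D2:**
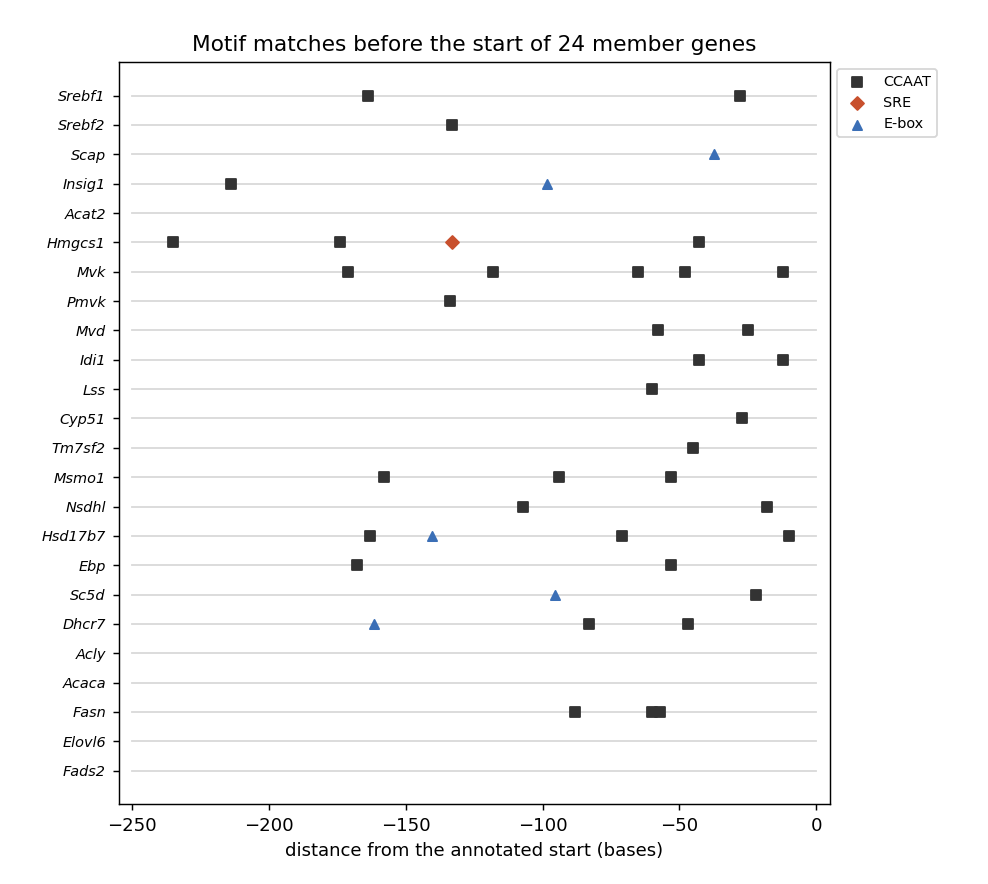
Positions of CCAAT, sterol element (SRE) and E-box matches in the 250 bases before the annotated start of 24 members, as distance from the start in bases; genes with several promoters have their matches on 1 line. CCAAT matches are in 18 genes, and the sterol element match is in Hmgcs1.

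The ES comparison rests on 1 Bio 2 culture. The ES Bio 2 reporter culture lay above both ES Bio 1 cultures for 22 of 31 members, against 31.2% of all genes, and below for 4, against 35.2%. The 11 squalene-to-cholesterol genes were all among the 22. By limma 0 members were called higher or lower (all genes 0.0856% and 0.366%), 1 member (Insig1) had an unadjusted p under 0.05, and the median log2 change was 0.41, against -0.01 over all genes.

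Insig1 had 58.0 FPKM in the ES Bio 2 culture, against 24.7 and 30.4 in the parental and reporter Bio 1 cultures. Msmo1 had 57.6 FPKM in ES Bio 2, against 19.9 and 39.7 in Bio 1. Cyp51 had 19.8 FPKM in ES Bio 2, against 13.8 and 10.8 in Bio 1. In each the Bio 2 culture was the highest, but the 2 Bio 1 cultures of Msmo1 were themselves about 2-fold apart. The ES Bio 2 culture is a reporter culture, and both ES reporter cultures lay above the parental one for 16 of 31 members, against 29.4% of all genes, and below for 3, against 34.9%.

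Whether the difference between Bio numbers differs between the lines can be tested only with 1 ES Bio 2 culture, so a missing call does not show that the lines are alike. The NMuMG difference minus the ES difference was positive for 29 of 31 members, against 50.4% of all genes. For it limma called 0 members higher and 0 lower (all genes 0.0778% and 0.0311%), with a median of 0.51 over the members and 0.00 over all genes; 1 member, Fdft1, had an unadjusted p under 0.05. Nsdhl had a difference of 1.05 ± 0.51 and Insig1 of 0.19 ± 0.49.

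In NIH3T3, replicate 1 lay above replicates 2 and 3 for 25 of 31 members, against 36.8% of all genes, and below for 1 (Srebf1), against 25.4%. Scd2 had 623 FPKM in replicate 1, against 209 and 148 in replicates 2 and 3. Fdps had 163 FPKM in replicate 1, against 95.3 and 60.2. Mvd had 81.9 FPKM in replicate 1, against 53.1 and 22.0. Replicate 3 was the lowest in all 3 genes.

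These NIH3T3 libraries differed in other lists as well. Replicate 1 lay above replicates 2 and 3 for 14 of 17 genes of fatty acid supply and storage, against 36.8% of all genes. It did so for 8 of 14 other sterol genes and 5 of 7 liver X receptor and efflux genes. Among oxidation genes it was 4 of 11, and among proliferation genes 5 of 15. The fibroblast markers summed to 2448 FPKM in replicate 1, against 3286 and 6183 in replicates 2 and 3, and the proliferation genes to 687, against 1175 and 450.0. Replicate 1 is a parental culture of another library series, and their parts in the difference cannot be told apart.

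Across the lines, the libraries of series 2 were the highest of their line for 20 of 31 members in all 3 lines at once, against 2.63% of 12854 genes, and the lowest for 0, against 2.45%. This pattern was noticed in the data. It held for 10 of 11 squalene-to-cholesterol genes (Ebp was the exception), 5 of 7 mevalonate genes, Insig1, Scap, Stard4, Scd1 and Scd2. Of the other sterol genes it held for 2 of 14, and of the proliferation genes for 0 of 15. With values scaled without short RNA it held for 17 members, and with quantile normalization for 20. Short RNA content and depth move with the series, and their part in the pattern was not tested beyond that scaling.

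**Figure D3:**
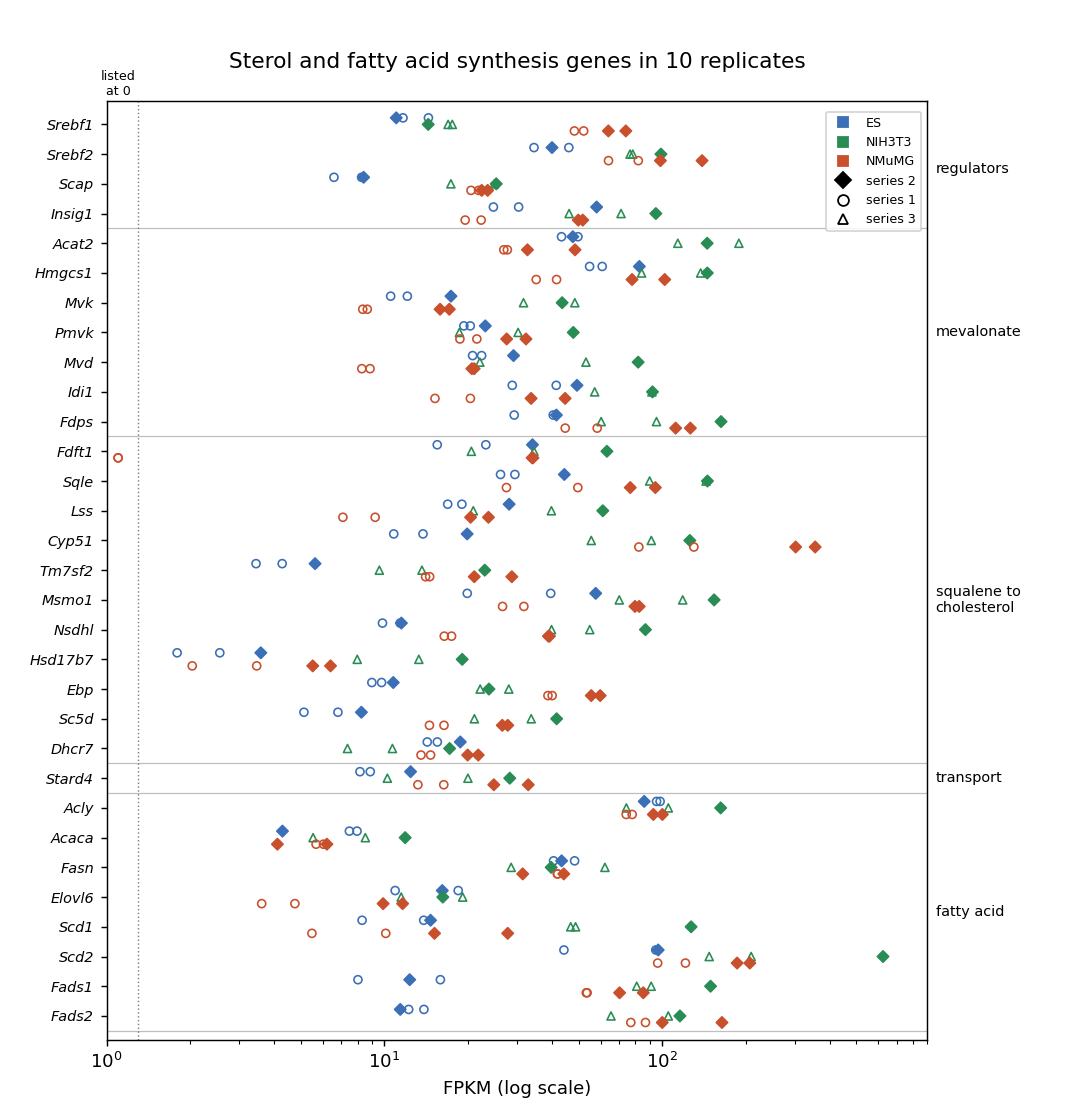
FPKM of each member (log axis) in 3 ES, 3 NIH3T3 and 4 NMuMG replicates; filled diamonds are libraries of series 2, open circles series 1 and open triangles series 3, and points left of the dotted line are listed at 0. For 20 members, such as Lss and Msmo1, the filled diamond of each line lies right of the open symbols of that line.

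Most members had their highest mean in NIH3T3, though the share of all genes with this order was not counted. The mean was highest in NIH3T3 for 22 members, in NMuMG for 8 and in ES for 1 (Fasn). The members took 0.171%, 0.2003% and 0.234% of the summed FPKM without short RNA in the ES parental, reporter Bio 1 and reporter Bio 2 cultures, and 0.728%, 0.480% and 0.336% in NIH3T3 replicates 1, 2 and 3. In NMuMG these shares were 0.476% and 0.465% in the Bio 2 cultures, and 0.245% and 0.277% in the Bio 1 cultures. The NMuMG Bio 2 shares thus lay just below that of NIH3T3 replicate 2 and above that of replicate 3. FPKM is per length, so members can be ranked within a line. ES cells had most of Acly (93.2 ± 6.35 FPKM, SD, n = 3) and least of Hsd17b7 (2.65 ± 0.901), NIH3T3 cells most of Scd2 (326 ± 259, n = 3) and least of Acaca (8.65 ± 3.17), and NMuMG cells most of Cyp51 (217 ± 132, n = 4) and least of Hsd17b7 (4.35 ± 1.97).

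In ES cells over NMuMG, limma called 1 of 31 members higher, against 19.4% of 12350 genes, and 12 lower, against 26.4%. The median log2 change was -0.43 over the members (-0.47 without Fdft1) and -0.09 over all genes. Of the 12, 3 were regulators, 1 a mevalonate gene, 5 squalene-to-cholesterol genes, 1 the carrier and 2 fatty acid genes. The same 12 of 31 members had all ES replicates below all NMuMG replicates, a share near the 39.3% of all genes. In 0 members all ES replicates lay above, against 32.1%.

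Cyp51 had 13.8, 10.8 and 19.8 FPKM in the ES parental, reporter Bio 1 and reporter Bio 2 cultures, against 302 and 355 in NMuMG Bio 2 and 82.4 and 129.9 in NMuMG Bio 1 (log2 change -3.59 ± 0.49, adjusted p = 0.000101, limma). Its highest ES culture was more than 4-fold below its lowest NMuMG culture. Fads2, the delta-6 desaturase of polyunsaturated fatty acids, had 13.9, 12.2 and 11.4 FPKM in ES, against 164, 99.97, 77.0 and 87.0 in NMuMG (-2.94 ± 0.27). Fads1, the delta-5 desaturase, had 8.03, 15.9 and 12.3 FPKM in ES, against 85.4, 70.2, 53.3 and 53.6 in NMuMG (-2.37 ± 0.28).

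Both desaturases were low in every ES culture. Srebf1 had 11.7, 14.4 and 11.03 FPKM in ES, against 64.0, 73.9, 52.1 and 48.3 in NMuMG (-2.17 ± 0.17, adjusted p = 2.3e-06, limma). Ebp, the sterol isomerase, had 9.77, 9.01 and 10.8 FPKM in ES, against 55.5, 59.8, 40.1 and 38.8 in NMuMG (-2.17 ± 0.18). In these 2 genes the spread within a line was small beside the difference.

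Among the other called members, the log2 change was -1.88 for Tm7sf2, a sterol C14 reductase, and -1.496 for Sc5d, the lathosterol desaturase. It was -1.40 for Scap, -1.18 for Srebf2, -1.17 for Nsdhl, -1.07 for Fdps and -1.013 for Stard4. Elovl6 was the 1 member called higher in ES, with 10.9, 18.4 and 16.1 FPKM in ES, against 11.6 and 9.89 in NMuMG Bio 2 and 3.62 and 4.76 in Bio 1 (1.03 ± 0.36, adjusted p = 0.0264, limma). Its groups overlapped, through the parental ES and parental NMuMG Bio 2 cultures. Insig1 had 0.11 ± 0.42.

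The choice of NMuMG cultures changed these counts. Against NMuMG Bio 1 alone, ES had 5 members higher and 8 lower (19.4% and 26.7% of all genes), and against NMuMG Bio 2 alone 0 higher and 14 lower (18.7% and 25.3%). Within series 1 it was 4 higher (Elovl6, Lss, Mvd and Fdft1, which was listed at 0 in these NMuMG cultures) and 8 lower (20.3% and 26.7% of all genes). Within series 2, which holds 1 ES culture, assumed to vary like the NMuMG pair, it was 0 higher and 7 lower (7.26% and 9.56%). The call of Elovl6 was lost without either ES reporter culture (0.88 and 0.97) or either NMuMG Bio 1 culture (0.78 and 0.88).

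Of the related lists in ES over NMuMG, those of fatty acid supply and oxidation had more genes called lower than higher. Of 17 tested genes of fatty acid supply and storage 1 was called higher and 9 lower; Acsl5, an acyl-CoA synthetase, changed by -4.38 and Me1, malic enzyme, by -4.16, and Elovl1 was listed at 0 in ES. Of 11 tested genes of fatty acid oxidation 0 rose and 7 fell, among them Acadvl (-2.56) and Acadl (-2.54), which encode acyl-CoA dehydrogenases of mitochondria. Of 14 other sterol genes 1 rose (Lbr, 1.48, a second sterol C14 reductase) and 4 fell, with Lipa, the lysosomal lipase, at -3.17. Of 6 tested liver X receptor and efflux genes 2 rose and 2 fell, with Apoe at 6.98, the receptor Nr1h3 at -3.30 and Lpcat3 at -1.94. The proliferation genes were called higher in ES for 13 of 15. Over all genes 19.4% were called higher in ES than in NMuMG and 26.4% lower.

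In NIH3T3 over NMuMG, 11 of 31 members were called higher, against 10.6% of 12350 genes, and 1 lower, against 14.4%. The median log2 change was 0.67 over the members (0.62 without Fdft1) and -0.05 over all genes. The 11 were 5 of 7 mevalonate genes, 4 of 11 squalene-to-cholesterol genes and 2 of 8 fatty acid genes, and 7 of 31 members had all NIH3T3 replicates above all NMuMG replicates, against 18.8% of all genes. Another 2, Srebf1 and Ebp, had all NIH3T3 replicates below, against 27.1%.

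Scd1 had 127, 46.8 and 48.7 FPKM in NIH3T3 replicates 1, 2 and 3, against 15.1 and 27.8 in NMuMG Bio 2 and 5.48 and 10.1 in NMuMG Bio 1 (log2 change 2.31 ± 0.50, adjusted p = 0.00384, limma). Acat2 had 145, 189 and 114 FPKM in NIH3T3, against 48.5, 32.7, 26.9 and 27.7 in NMuMG (2.11 ± 0.23). Mvk had 43.6, 48.4 and 31.7 FPKM in NIH3T3, against 17.1, 15.9, 8.35 and 8.67 in NMuMG (1.69 ± 0.29). In these 3 genes no NIH3T3 replicate reached down to an NMuMG culture.

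Mvd rose by 1.70, Idi1 by 1.55, Hsd17b7, a sterol ketoreductase, by 1.44, Lss by 1.40, Nsdhl by 1.13, Sqle by 1.12, Elovl6 by 1.07 and Hmgcs1 by 1.011. Of these 8, Lss, Sqle, Elovl6 and Hmgcs1 overlapped between the lines, each through NIH3T3 replicate 3, which lay below the higher NMuMG Bio 2 culture. Srebf1 was the 1 member called lower, with 14.4, 16.9 and 17.5 FPKM in NIH3T3, against 64.0, 73.9, 52.1 and 48.3 in NMuMG (-1.79 ± 0.17, adjusted p = 1.51e-05, limma). Srebf2 had -0.13 ± 0.24, Scap 0.01 ± 0.16 and Insig1 1.03 ± 0.42, and these 3 were not called.

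The counts again changed with the NMuMG cultures used. Against NMuMG Bio 1 alone 14 members were higher, Fdft1 among them, and 1 lower (10.2% and 14.7% of all genes), and against NMuMG Bio 2 alone 3 were higher (Acat2, Mvk and Scd1) and 3 lower (Cyp51, Ebp and Srebf1), shares near the 9.68% and 13.5% of all genes. Within series 2, which holds 1 NIH3T3 culture, it was 1 higher (Mvd, 1.92) and 0 lower (4.3% and 2.87% of all genes), with a median of 0.74 over the members. Leaving out NIH3T3 replicate 1, 2 or 3 gave 5, 6 and 11 higher (10.1%, 10.4% and 10.4% of all genes). Without the parental or the reporter NMuMG Bio 1 culture it was 6 (10.2% and 9.92%). Without the parental or the reporter NMuMG Bio 2 culture it was 14 and 12 (12.2% and 10.1%).

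Of 14 other sterol genes 3 rose in NIH3T3 over NMuMG, among them Npc2 (1.60), which moves cholesterol out of lysosomes, and Tmem97 (1.06), and 1 fell. Of 17 genes of fatty acid supply and storage 0 rose and 6 fell, among them Me1 (-3.19), the elongase Elovl7 (-2.86) and Dgat2 (-2.32), which makes triglyceride. Of 11 oxidation genes 0 rose and 3 fell, among them Slc25a20, the carnitine carrier of mitochondria, and of 6 liver X receptor and efflux genes 1 rose (Mylip, listed at 0 in 3 of 4 NMuMG cultures) and 2 fell (Nr1h3, -3.62, and Lpcat3, -1.19). The proliferation genes were called higher for 1 of 15. Over all genes 10.6% were called higher in NIH3T3 than in NMuMG and 14.4% lower.

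In ES over NIH3T3, 0 of 31 members were called higher, against 20.1% of 12350 genes, and 17 lower, against 23% of them. The median log2 change was -1.24 over the members (-1.31 without Fdft1) and 0.03 over all genes, and 19 members had all ES replicates below all NIH3T3 replicates, against 33.4% of all genes; 0 had all above, against 33.7%. The 17 were 2 regulators, 3 mevalonate genes, 8 squalene-to-cholesterol genes and 4 fatty acid genes.

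Fads1 had 8.03, 15.9 and 12.3 FPKM in ES, against 149, 91.2 and 80.9 in NIH3T3 (-3.04 ± 0.30, adjusted p = 1.06e-05, limma). Nsdhl had 9.84, 11.4 and 11.5 FPKM in ES, against 87.0, 54.8 and 39.9 in NIH3T3 (-2.30 ± 0.38). Sqle had 29.5, 26.2 and 44.4 FPKM in ES, against 145, 144 and 90.0 in NIH3T3 (-1.89 ± 0.41). All ES cultures lay below all NIH3T3 replicates in these genes.

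The log2 change was -2.80 for Fads2, -2.502 for Cyp51, -2.38 for Scd1, -2.07 for Sc5d, -1.94 for Hsd17b7, -1.84 for Scd2, -1.62 for Acat2, and -1.57 for both Msmo1 and Mvk. It was -1.41 for Scap and -1.05 for Srebf2, whereas Srebf1 had -0.38 ± 0.19 and Insig1 -0.93 ± 0.45, which were not called. The remaining called members were Tm7sf2 at -1.53, Fdps at -1.39 and Ebp at -1.24. Series 2 holds 1 ES and 1 NIH3T3 culture, with no replicate check of their difference; its median over the members was -1.28.

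Of 14 other sterol genes 1 rose in ES over NIH3T3 (Lbr, 1.37) and 3 fell, among them Npc2 (-2.74) and Lipa (-2.42). Of 11 oxidation genes 0 rose and 6 fell, among them Acadvl (-2.12), Acadl (-2.03) and Cpt1a (-1.88), which brings fatty acids into mitochondria. Of 17 genes of fatty acid supply and storage 1 rose and 3 fell, and of 6 liver X receptor and efflux genes 1 rose (Apoe, 6.36, the apolipoprotein) and 1 fell (Mylip, -3.54, a ubiquitin ligase). The proliferation genes were called higher in ES for 4 of 15. Over all genes 20.1% were called higher in ES than in NIH3T3 and 23% lower.

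Acly, Fasn and Acaca, which carry carbon into fatty acids, were called in none of the line comparisons, nor were Pmvk, Dhcr7, Insig1 or Fdft1. Acly had means of 93.2 ± 6.35 FPKM in ES (SD, n = 3), 114 ± 44.6 in NIH3T3 (n = 3) and 86.3 ± 12.3 in NMuMG (n = 4). Fasn had means of 44.1 ± 3.91 FPKM in ES, 43.5 ± 17.1 in NIH3T3 and 39.9 ± 5.73 in NMuMG. For Fasn the log2 difference was 0.15 ± 0.23 in ES over NMuMG, 0.06 ± 0.23 in NIH3T3 over NMuMG and 0.09 ± 0.25 in ES over NIH3T3. The 3 line comparisons share their cultures.

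**Figure D4:**
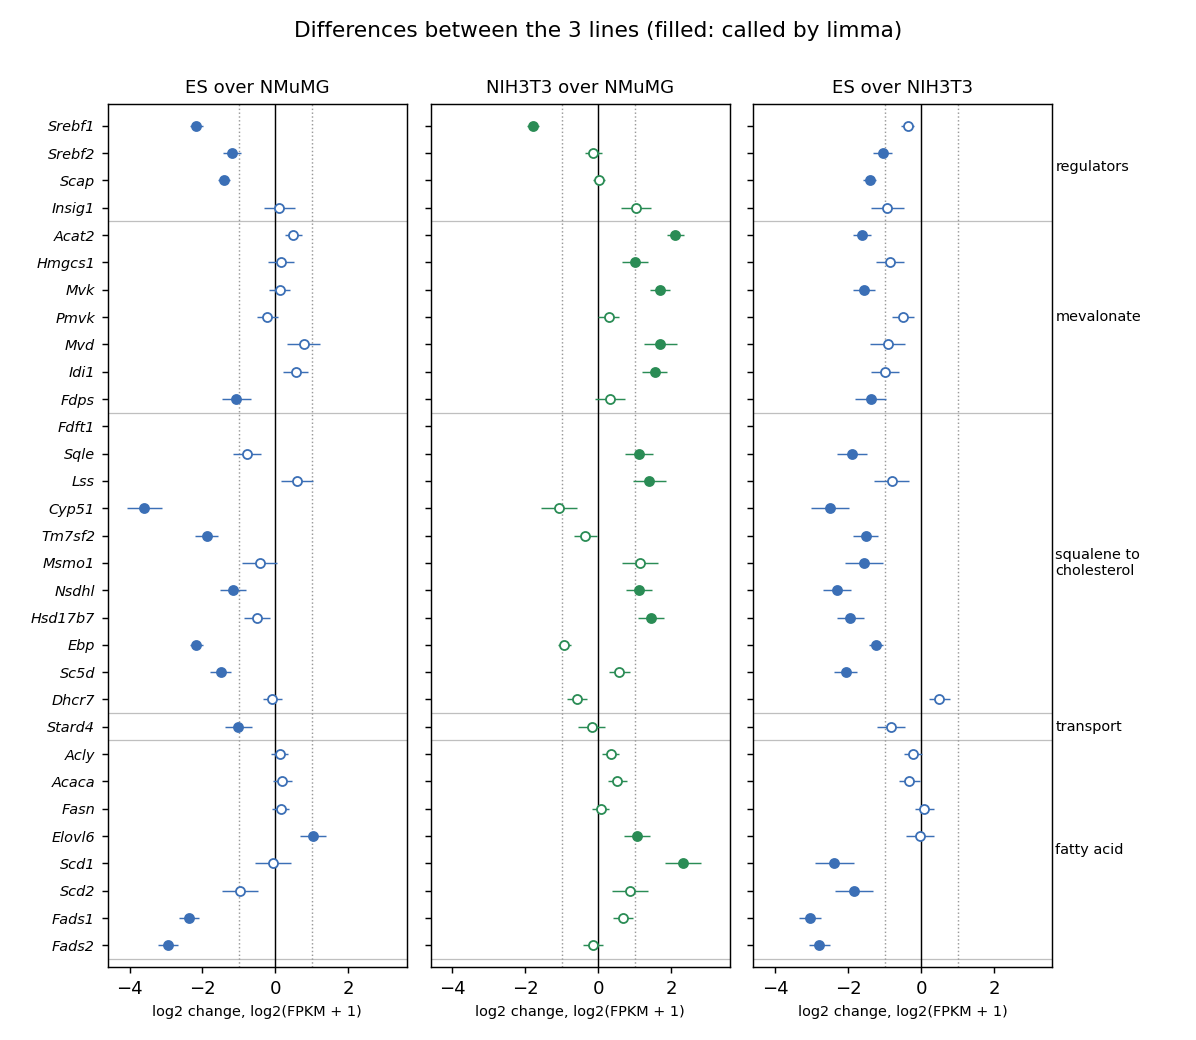
Log2 change ± SE of each member on the log2(FPKM + 1) scale in ES over NMuMG, NIH3T3 over NMuMG and ES over NIH3T3 (limma, 3 ES, 3 NIH3T3 and 4 NMuMG replicates); filled points passed the adjusted p threshold and the dotted 2-fold lines, and Fdft1 is left out. Called members number 13 in the ES over NMuMG panel, 12 in NIH3T3 over NMuMG and 17 in ES over NIH3T3.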

How the data were processed

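Total RNA was isolated with RNeasy kits and made into libraries with NEBNext Ultra kits, per the labels' protocols. The authors deposited FPKM per gene for each library; bcl2fastq 1.8.4, TopHat and Cufflinks with mm10 are named in the submitters' processing notes, and other versions are not given in the sources used here. FPKM keeps no read counts, so the depth behind a value is unknown beyond the relative depth given. Strand was not stated, so overlapping genes may share reads. Each of 11 tables held 23849 entries; entries of a symbol were summed and 3 symbols with a failed status were left out. The 2 technical runs of the ES reporter Bio 1 culture were averaged, leaving 10 replicates.

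Tests used limma 3.58.1 (R 4.3.3) on log2(FPKM + 1), two-sided, with Benjamini-Hochberg adjustment over all genes tested, and calls needed an adjusted p under 0.05 and at least 2-fold. Fold changes on this scale understate those of low genes. Cultures were tested over 12854 genes (at least 1 FPKM in 2 of 10 replicates) and lines over 12350 (in 3 of 10); all 31 members passed. One fit per question shared the spread over all groups. Scripts ran in Python 3.11.15 and were tested on simulated data. Named members were the called ones, up to 12 by size, and the 4 regulators; others were chosen after their values were seen. From the other lists up to 3 called genes were named, and some results on single genes of these lists are not reported here. The members and lists were chosen with earlier results of these data known. Of the 3 NIH3T3 tables, those of replicates 2 and 3 match the line but no single sample.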

Additional observations from a re-analysis of the deposited data

Results flagged for a closer look

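For 3 members both NMuMG Bio 2 cultures lay above both Bio 1 cultures, while the ES Bio 2 culture lay below both ES Bio 1 cultures. The NMuMG difference minus the ES difference was 0.66 for Srebf1, 0.51 for Acly and 0.82 for Fads2 on the log2 scale. By limma the difference between the lines did not pass the threshold for any of them (adjusted p = 0.842, 1 and 0.93), and each ES value rests on 1 Bio 2 culture. Among the 31 members no NMuMG culture stood apart from the other 3 by Dixon's criterion for 4 samples. Both Bio 2 cultures lay above both Bio 1 cultures for 29 of 31 members, a split in which this criterion can hardly find a single culture.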

How the results depend on the processing

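The comparison with NMuMG Bio 1 or Bio 2 cultures alone and the counts without Fdft1 were added after seeing the data; the other alternatives were planned. In NMuMG Bio 2 over Bio 1, 0 members were called higher without Fdft1, and 0 with parental or reporter as a replicate block in the 4 NMuMG cultures. For the NMuMG minus ES difference, 1 was higher with a pseudocount of 0.1, and 0 to 1 with single replicates left out. In ES over NMuMG, 0 were higher with a pseudocount of 5, 2 with library series as the replicate block, 4 within series 1, 0 within series 2, 0 in parental cultures only, 5 against Bio 1 alone, 0 against Bio 2 alone, and 0 to 1 with single replicates left out; 7 were lower within series 2 and 1 in parental cultures only. In NIH3T3 over NMuMG, 6 were higher without the filter on low values (6.78% of all genes) and 3 against Bio 2 alone (9.68%). With single replicates left out it was 5 to 14 (9.92% to 12.2%). NIH3T3 is 1 culture within series 2 and in parental cultures only, where the median log2 change over the members was 0.74 and 1.17. In the same comparison 2 were lower when scaled without short RNA (16.7% of all genes) and 2 with the replicate block (11.2%). It was 3 against Bio 2 alone (13.5%), and 1 to 3 with single replicates left out (13.2% to 15.3%). In ES over NIH3T3, 6 were lower within series 2 (7.49% of all genes) and 0 in parental cultures only (8.74%); both set 1 culture against 1, with a spread taken from NMuMG, so these counts are no test of the 2 lines. The causes were not tested, except that fewer samples entered the parental and within-series fits.

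Signs were followed for the named members of each comparison (the called ones, up to 12, and the 4 regulators). Among these, signs turned for the following, which were not called. Insig1 in ES over NMuMG was -0.13, -0.07 and -0.24 without NMuMG replicate 1, NMuMG replicate 2 and ES replicate 4 (-0.24 to 0.36 over all single replicates left out), -0.36 in parental cultures only and -0.52 against Bio 2 alone. Srebf2 in NIH3T3 over NMuMG was 0.065 without NMuMG replicate 4 (-0.30 to 0.065 over all left out), 0.31 in parental cultures only and 0.21 against Bio 1 alone. Scap there was -0.047 when scaled without short RNA, -0.024, -0.080 and -0.070 without NMuMG replicate 1, NIH3T3 replicate 1 and NIH3T3 replicate 2 (-0.080 to 0.18 over all left out), and -0.047 against Bio 2 alone. Scap in the NMuMG minus ES difference was 0.091 without ES replicate 2 (-0.20 to 0.091 over all left out). Bio numbers are not stated to pair samples; the Bio differences of NMuMG and ES correlated across 12854 genes (r = 0.43), genes being no independent replicates, and the 2 technical runs differed by a median of 0.05 (log2) over the members. Depth limits low genes, and counting error could not be computed from FPKM.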
